A study of Mus musculus with 4 samples.

Results

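The genes described here are the ligand, the receptor chains, the Janus kinases and the SOCS feedback inhibitors of interferon signaling, 10 genes chosen by name from the 55450 genes of the count table. They are Ifnb1, Ifnar1, Ifnar2, Ifngr1, Ifngr2, Jak1, Jak2, Tyk2, Socs1 and Socs3, each listed once. RNA was sequenced after depletion of ribosomal RNA from MLO-Y4, an established mouse cell line with osteocyte-like features, in 2 unloaded and 2 loaded samples. The loaded cells grew on collagen-coated UniFlex plates with a silicone rubber base and were stretched equally in all directions for 12 h, with a strain of 20% repeated at 0.5 Hz. The unloaded cells grew on ordinary Corning plates and stood for 12 h in the incubator of the same stretching system. All samples are of the same wild-type line, and nothing states that replicates came from separate cultures, so p-values measure only the spread between these samples, which may be technical. Plate and stretch differ together between the groups and cannot be told apart. Total counts were 28941994 and 30058313 for unloaded replicates 1 and 2, and 32185693 and 30337236 for loaded replicates 1 and 2. The question was whether the upstream genes of the pathway were lower in loaded cells along with the targets of the pathway.

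The markers of the line were mixed. Col1a1, a collagen gene of bone, had 993 and 1032 CPM (counts scaled by the library total after TMM normalization) in unloaded and 931 and 976 CPM in loaded replicates 1 and 2. Gja1, which encodes connexin 43, had 500.1 and 494 CPM in unloaded and 584 and 485 CPM in loaded replicates. Pdpn, a marker of early osteocytes, had 143 and 151 CPM against 215 and 228 CPM (log2 fold change 0.59, edgeR adjusted p = 0.0334). Of 11 bone markers 7 were tested, and Pdpn was the one gene that DESeq2 called higher, while edgeR called 0 at an adjusted p under 0.01 and 1 had an unadjusted p under 0.05. Phex, an endopeptidase gene of osteocytes, had 43.7 and 43.8 CPM in unloaded and 47.5 and 55.8 CPM in loaded replicates, and the osteoblast factor gene Runx2 had 49.2 and 48.5 CPM against 56.4 and 53.2 CPM. The other 6 bone markers were at or near 0: Mepe had no count, Sost had 4 counts in loaded replicate 1 and 0 elsewhere, Dmp1 had 12 to 14 counts per library, and Fgf23, Bglap and Alpl had at most 14. Of 10 leukocyte markers, Csf1r, the receptor of macrophage colony-stimulating factor, carried nearly all of the summed level, with 1573, 1584, 1558 and 1562 CPM in the order of the libraries above. The other 9 markers summed to 7.75 and 6.01 CPM in unloaded and 4.40 and 3.89 CPM in loaded replicates, most of it from the lysosomal gene Cd68 and the lysozyme gene Lyz2. The defining markers Ptprc, Adgre1, Itgam and Itgax had at most 4 counts in a library, Siglech had 10 counts in unloaded replicate 1 and 0 elsewhere, and Cd3e had none. Of the 10 markers 3 were tested, edgeR, DESeq2 and limma-voom called 0, and Cd68 alone had an unadjusted edgeR p under 0.05. In bulk RNA, fewer cells of a type and less RNA per cell cannot be told apart.

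Type I interferons, interferon beta among them, bind a receptor made of the IFNAR1 and IFNAR2 chains, whose partner kinases are TYK2 and JAK1. Interferon gamma binds IFNGR1 and IFNGR2, whose partner kinases are JAK1 and JAK2. The kinases phosphorylate STAT proteins, which enter the nucleus and switch on interferon-stimulated genes, and SOCS1 and SOCS3 are induced proteins that dampen the kinases.

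Of the 10 genes, 9 passed the filter on low counts and Ifnb1 did not. None of the 9 was called at an adjusted p under 0.01 with edgeR's quasi-likelihood test, where the background was 0.0861% of tested genes called lower and 0.0123% called higher. At an adjusted p under 0.05, 1 of the 9 was lower, Jak2, against 0.565% of all tested genes. At an unadjusted p under 0.05, 4 were lower and 0 were higher, against backgrounds of 7.46% and 6.88%. With DESeq2, 2 were lower at an adjusted p under 0.01, Jak2 and Ifngr1, and 0 were higher, against 1.55% and 1.36% of the genes it adjusted. With limma-voom 0 of the 9 were called, where 3 of all 16269 tested genes were called higher and 13 lower. Both loaded libraries lay below both unloaded libraries for 6 of the 9 genes, against 24.5% of all tested genes, and above them for 1, against 22.1%. The median log2 fold change of the 9 genes was -0.27, against -0.0089 over all 16269 tested genes and -1.07 over 41 interferon-stimulated targets. With 2 libraries per group, an exact permutation test over libraries cannot give a two-sided p below 0.333, so the tests reported are those fitted across all genes.

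**Figure D1:**
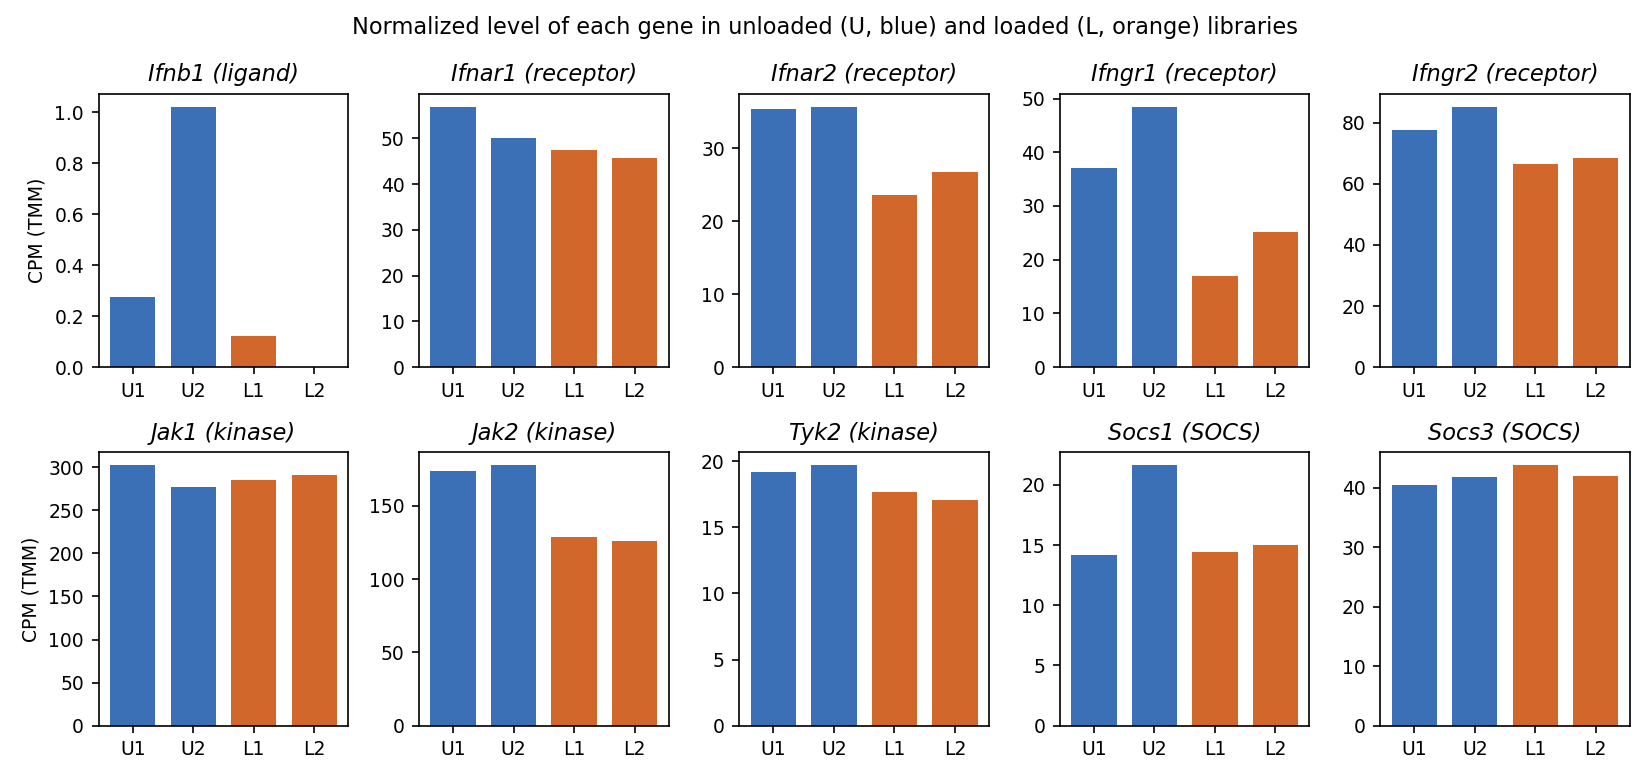
Normalized level in CPM of each of the 10 genes, with 1 bar per library (U1 and U2 unloaded, L1 and L2 loaded) and axes that start at 0. The 4 receptor chains, Jak2 and Tyk2 are lower in both loaded libraries, Jak1 and Socs1 overlap between the groups, and Ifnb1, on its own scale like each gene, is at most 1.02 CPM.

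Ifnb1 (ENSMUSG00000048806.4) encodes interferon beta, a type I interferon that many cell types make when they sense foreign nucleic acid. Its single exon spans bases 88522025 to 88522774 of chromosome 4 (GRCm38), minus strand. Unloaded replicates 1 and 2 held 8 and 31 counts of it, and loaded replicates 1 and 2 held 4 and 0. The loaded libraries were the lower ones and the groups did not overlap, but unloaded replicate 2 held most of the counts. Summed over libraries, 39 counts stood against 4, a loaded to unloaded ratio of 0.0981 with an exact 95% interval of 0.0255 to 0.272 for counting error only. Without unloaded replicate 2 the ratio was 0.234 (exact 95% interval 0.0516 to 0.873), without unloaded replicate 1 it was 0.0630, and without loaded replicate 2 it was 0.189. Without loaded replicate 1 no loaded count was left, and a floor of 3 counts over the group allows a ratio of up to 0.153. Fitted without the filter on low counts, it had a log2 fold change of -3.28, a value that depends on the prior count (SE 1.34, edgeR adjusted p = 0.547). The standard error (SE) is the size of the log2 fold change divided by the square root of the F statistic. Without loaded replicate 2 the log2 fold change was -2.35. Without loaded replicate 1 it was -7.28, a size set by the prior count because no loaded count was left. DESeq2 gave no adjusted p. Over the alternatives that gave one, the adjusted p ranged from 0.318 to 0.573.

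The counts were made from assembled coverage, so a count may not be an independent read. Among low values, some multiples of 4 were more frequent than their neighbours: between 1223 and 1259 genes per library had 4 counts, against 560 to 623 genes with 3 and 764 to 770 genes with 5. Similarly, 508 to 576 genes had 8 counts, against 239 to 280 genes with 7. Most low values nevertheless lay elsewhere: 765 to 878 genes per library had 1 count and 718 to 808 had 2, and 31.0% to 32.8% of genes with 1 to 13 counts were on a multiple of 4. If counts are not independent reads, the interval above is too narrow. With the counts divided by 4 and rounded, a scale chosen after the data were seen, Ifnb1 had 2, 8, 1 and 0 counts and the ratio was 0.0956, with an exact 95% interval of 0.00220 to 0.672. A floor of 3 counts corresponds to 0.101 CPM in loaded replicate 2, where no Ifnb1 count was found.

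The promoter of Ifnb1 is shown because Ifnb1 is the ligand of the set. The stretch is on the minus strand of chr4:88522884-88522983, positions -189 to -90 from the start in RefSeq (GRCm38.p6), outside every annotated gene. Capitals mark the 3 matches of AANNGAAA, the core recognized by interferon regulatory factors, a motif added after the windows were seen:
Ifnb1: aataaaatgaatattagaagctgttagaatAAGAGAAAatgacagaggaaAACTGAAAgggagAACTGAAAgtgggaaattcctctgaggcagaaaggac
Of 32851 promoter windows of 300 bases, 23.9% hold this motif on either strand. A match is a run of letters and shows no binding.

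Other interferon ligands gave little signal. Of 20 listed genes, 13 had no count in any library, and 1, Ifnz, passed the filter. Ifnz, a type I interferon of a family of closely related genes among which reads can be split, had 26 and 29 unloaded and 28 and 31 loaded counts by replicate. Its log2 fold change was 0.042 (edgeR adjusted p = 0.977), it was -0.094 without loaded replicate 2, and the groups overlapped. Ifne had 0, 3, 4 and 4 counts and Ifna13 had 0, 0, 0 and 4 counts in the 2 unloaded and 2 loaded libraries. Ifng, the ligand of the type II receptor, had 2 counts in loaded replicate 2 and 0 elsewhere, and was named after its values were seen. No fold change is given for genes at or near the floor.

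Ifnar1 (ENSMUSG00000022967.13) encodes the chain of the type I receptor that partners with TYK2. It had 56.9 and 50.1 CPM in unloaded replicates 1 and 2, and 47.4 and 45.7 CPM in loaded replicates 1 and 2. Both loaded libraries were lower and the groups did not overlap, though the lowest unloaded library was closer to the loaded libraries than to the other unloaded one. The log2 fold change was -0.20 (SE 0.106, edgeR adjusted p = 0.451), which did not pass the test, and it was -0.10 without unloaded replicate 1.

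Ifnar2 (ENSMUSG00000022971.18) encodes the chain that binds type I interferon with the higher affinity and partners with JAK1. Its level was 35.4 and 35.7 CPM in unloaded cells and 23.5 and 26.7 CPM in loaded cells, by replicate. The unloaded libraries were nearly equal and both loaded libraries lay below them. Its log2 fold change of -0.50 (SE 0.108) had an edgeR adjusted p = 0.128, and the adjusted p over the alternatives ranged from 0.0589 with DESeq2 to 0.311. Ifnar2 shares 315 bp of exon on the same strand with Gm21970, which had 38, 18, 21 and 0 counts, so the split of reads between them is uncertain. Per kb of exon, the ratio of Ifnar1 to Ifnar2 was 0.901 and 0.787 in unloaded and 1.13 and 0.959 in loaded replicates, and all loaded values were the higher ones, though the size of the ratio depends on the length used for each gene.

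Ifngr1 (ENSMUSG00000020009.13), on chromosome 10 from 19591949 to 19610229, encodes the ligand-binding chain of the interferon gamma receptor. It had 37.0 and 48.5 CPM in unloaded replicates 1 and 2, and 17.0 and 25.1 CPM in loaded replicates 1 and 2. Both loaded libraries were below both unloaded ones, and within each group replicate 2 was the higher. The log2 fold change of -1.02 (SE 0.219) was the lowest of the 9 tested genes, but edgeR gave an adjusted p = 0.127. DESeq2 gave an adjusted p of 0.000120, and over all alternatives the adjusted p ranged up to 0.253. Fits that lacked 1 library gave log2 fold changes between -1.33 and -0.76, and none called the gene.

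Ifngr2 (ENSMUSG00000022965.8) encodes the second chain of this receptor, which brings in JAK2. Its level was 77.6 and 85.3 CPM in unloaded cells and 66.4 and 68.5 CPM in loaded cells, by replicate. The groups did not overlap, and the log2 fold change was -0.27 (SE 0.0925, edgeR adjusted p = 0.272). The ratio of Ifngr1 to Ifngr2 per kb of exon was 0.631 and 0.753 in unloaded and 0.338 and 0.486 in loaded replicates. The chains of the receptor thus stood farther apart in level in both loaded libraries, a difference that was not tested.

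Of the 4 receptor chains, 3 genes lie together on the plus strand of chromosome 16: Ifnar2 (91372783 to 91405589), Ifnar1 (91485238 to 91507441) and Ifngr2 (91547072 to 91565623). Il10rb, between Ifnar2 and Ifnar1, encodes a chain shared by the receptors of interleukin 10 and interferon lambda. It had 22.2 and 21.8 CPM in unloaded and 13.6 and 19.1 CPM in loaded replicates, with a log2 fold change of -0.43 (adjusted p of 0.354 by edgeR), which was -0.70 without loaded replicate 2 and -0.20 without loaded replicate 1. Ifnlr1, the partner of Il10rb for interferon lambda, had 4 counts in unloaded replicate 1 and 0 elsewhere. Within 100000 bp of the cluster 7 further genes were tested, named after their values were seen, and edgeR, at an adjusted p under 0.01, and DESeq2 called 0 of them. Of these, 5 had negative and 2 had positive log2 fold changes. Dnajc28, a chaperone-family gene, had 3.51 and 3.76 CPM in unloaded and 1.49 and 1.74 CPM in loaded replicates (log2 fold change -1.17, edgeR adjusted p = 0.148), and it alone had an unadjusted p under 0.05. Tmem50b had a log2 fold change of -0.10, Gart of 0.077 and Son of -0.016, with edgeR adjusted p-values of 0.770, 0.704 and 0.954. The other 3, Gm21970, Gm7860 and Gm15964, had at most 1.31 CPM in a library.

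Jak1 (ENSMUSG00000028530.14), on chromosome 4 from 101152367 to 101265282, encodes the kinase that serves both receptors. It had 303 and 277 CPM in unloaded replicates 1 and 2, and 285 and 291 CPM in loaded replicates 1 and 2. Both loaded libraries lay between the unloaded ones. Its log2 fold change was -0.0086 (SE 0.0680, edgeR adjusted p = 0.972), and its sign turned with RLE factors in place of TMM, without unloaded replicate 1 (0.063) and without loaded replicate 1 (0.010), so no direction is given. Its exons share 4 bp with Raver2 on the opposite strand, which had 0 to 11 counts per library.

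Jak2 (ENSMUSG00000024789.13), on chromosome 19 from 29251828 to 29313080, encodes the kinase of the IFNGR2 chain and of many cytokine receptors. Its counts were 5042 and 5388 in unloaded and 4162 and 3747 in loaded replicates, and its level was 174 and 178 CPM against 129 and 126 CPM. The replicates lay close together within each group and far from the other group. The log2 fold change was -0.46 (SE 0.0658), and it had the smallest p of the 9 genes. The edgeR adjusted p = 0.0445 missed the threshold of 0.01, whereas DESeq2 gave 0.000103. The adjusted p over all alternatives reached 0.149. Without a library the log2 fold change stayed between -0.48 and -0.45, and the edgeR adjusted p was 0.121 to 0.149, above 0.05 whichever library was left out.

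Tyk2 (ENSMUSG00000032175.11), on chromosome 9 from 21104068 to 21131243, encodes the kinase of the IFNAR1 chain. It had 19.2 and 19.7 CPM in unloaded and 17.6 and 17.0 CPM in loaded replicates. The groups did not overlap, and the log2 fold change of -0.16 (SE 0.116, edgeR adjusted p = 0.579) did not pass the test. Its exons share 554 bp with the antisense gene 1700084C06Rik, which had 2 to 5 counts per library, and it is not stated whether counting used strand. Jak3, a kinase of leukocyte cytokine receptors, had 10.3 and 14.1 CPM in unloaded and 9.51 and 8.35 CPM in loaded replicates, with a log2 fold change of -0.45 (adjusted p of 0.388 by edgeR), which was -0.21 without unloaded replicate 2.

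Among tested genes outside the lists with a mean of at least 1 CPM, the 5 whose log2 CPM, centred over the 4 libraries, lay closest to that of Jak2 were Fanci, Pdk1, Zfp607b, Mks1 and Glis2. Their sums of squared differences were 0.000730 to 0.00180, and their log2 fold changes were -0.50 to -0.43. The closest, the DNA repair gene Fanci, had 53.5 and 53.8 CPM in unloaded and 38.8 and 38.5 CPM in loaded replicates. Pdk1, which encodes a pyruvate dehydrogenase kinase, had 90.3 and 92.5 CPM against 68.5 and 67.1 CPM. With 4 libraries many genes can share a pattern, and nothing about shared control follows.

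Socs1 (ENSMUSG00000038037.5), at bases 10782240 to 10785536 of chromosome 16 (minus strand), encodes an inhibitor that binds the Janus kinases. It had 14.2 and 21.6 CPM in unloaded replicates 1 and 2, and 14.4 and 15.0 CPM in loaded replicates 1 and 2. Unloaded replicate 2 stood above the other 3 libraries, which were nearly equal, and the groups overlapped. Its log2 fold change was -0.28 (SE 0.213, edgeR adjusted p = 0.606), and without unloaded replicate 2 it was 0.052. In all, 7 of the 9 tested genes were higher in unloaded replicate 2 than in unloaded replicate 1, against 15 of 41 targets and 8159 of 16269 tested genes.

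Socs3 (ENSMUSG00000053113.3), on chromosome 11 from 117966079 to 117970047, encodes an inhibitor induced by cytokines of the interleukin 6 family. Its level was 40.4 and 41.8 CPM in unloaded cells and 43.8 and 42.0 CPM in loaded cells, by replicate. It was the only one of the 9 tested genes with both loaded libraries above both unloaded ones, by a margin smaller than the gap between replicates. The log2 fold change was 0.062 (SE 0.0937, edgeR adjusted p = 0.820).

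The promoters of the SOCS genes are shown because these genes are themselves targets of STAT signaling. GAAANNGAAA is the core of the interferon-stimulated response element, and TTCNNNGAA is the gamma-activated site bound by STAT dimers. Both were searched on both strands, the first contains the letters AANNGAAA, and capitals mark the matches in the stretches below, all before the RefSeq start (GRCm38.p6) and outside annotated exons. Socs1 is given from the minus strand of chr16:10785562-10785661 with 2 overlapping matches of the first motif. Socs3 is given from the minus strand of chr11:117969467-117969566 with 1 match of the second motif, inside an intron of a longer Socs3 transcript. Ifnar2, from the plus strand of chr16:91372533-91372632, has 1 match of the second motif:
Socs1: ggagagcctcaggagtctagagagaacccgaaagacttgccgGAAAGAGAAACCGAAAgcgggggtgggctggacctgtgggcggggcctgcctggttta
Socs3: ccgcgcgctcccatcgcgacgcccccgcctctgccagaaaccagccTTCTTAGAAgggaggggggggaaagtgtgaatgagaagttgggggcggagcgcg
Ifnar2: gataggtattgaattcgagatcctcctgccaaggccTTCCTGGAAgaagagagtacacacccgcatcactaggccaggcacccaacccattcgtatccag
All 10 genes had a window. The first motif was in 1 of the 10 windows and in 3.44% of all windows, and the second was in 3 of the 10 and in 8.30% of all windows. The third window with the second motif was that of Ifnar1, where the match spans the start.

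Of the other 6 SOCS family genes all were tested and 0 were called by edgeR, DESeq2 or limma-voom at an adjusted p under 0.01, while 1, Socs5, had an unadjusted edgeR p under 0.05. Their median log2 fold change was 0.060, with 4 of 6 positive. Socs4 and Socs2, named with Socs5 for their mean CPM, overlapped between the groups, with log2 fold changes of 0.072 and 0.12. In the fits lacking 1 library, Socs2 lay between 0.040 and 0.19 and Socs4 between -0.0065 and 0.16, with negative values without replicate 2 of either group. Socs5 had 75.8 and 69.4 CPM in unloaded and 86.6 and 84.2 CPM in loaded replicates (log2 fold change 0.23, edgeR adjusted p = 0.321).

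Of 10 other brakes on the pathway, such as phosphatases and PIAS proteins, 0 were called by edgeR, 0 by limma-voom and 1 by DESeq2 at an adjusted p under 0.01, with 3 at an unadjusted edgeR p under 0.05. The median log2 fold change was -0.055. The phosphatase gene Ptpn11 had a log2 fold change of 0.11, Pias2 of 0.23 and Ptpn1 of -0.068, and these 3 had the highest mean CPM of the list. In the fits lacking 1 library, Ptpn11 lay between 0.057 and 0.16 and Ptpn1 between -0.21 and 0.066, positive without unloaded replicate 2 or loaded replicate 1. The gene called by DESeq2 was Usp18, an interferon-induced protein that blocks IFNAR2, named after its values were seen. It had 9.02 and 7.72 CPM in unloaded and 2.48 and 3.15 CPM in loaded replicates, a log2 fold change of -1.57 (SE 0.233, edgeR adjusted p = 0.0510).

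Levels were compared between genes per kb of the union of exons. In unloaded cells the order by mean CPM per kb, with the SD over 2 libraries, ran from Jak1 (40.1 ± 2.48) and Jak2 (34.9 ± 0.588) over Ifngr2 (21.6 ± 1.44) to Ifngr1 (15.0 ± 2.85) and Socs3 (14.2 ± 0.339), which overlapped. Below them stood Ifnar2 (10.7 ± 0.0652), Ifnar1 (9.01 ± 0.809), Socs1 (6.16 ± 1.81), Tyk2 (2.83 ± 0.0536) and Ifnb1 (0.866 ± 0.705). Per kb of the longest transcript this order turned for the type I chains, with Ifnar1 at 13.7 above Ifnar2 at 11.7 CPM per kb. The kinases held both the highest levels and, with Tyk2, one of the lowest. In loaded cells Jak1 was at 39.9 ± 0.632, Jak2 at 25.3 ± 0.460, Ifngr2 at 17.9 ± 0.382 and Socs3 at 14.8 ± 0.452 CPM per kb. Ifnar1 (7.83 ± 0.205), Ifnar2 (7.54 ± 0.669) and Ifngr1 (7.40 ± 2.02) followed and overlapped, and Socs1 (5.06 ± 0.135), Tyk2 (2.53 ± 0.0608) and Ifnb1 (0.0826 ± 0.117) came last. Per kb of the longest transcript, loaded Ifnar1 (11.9 ± 0.312) stood above Ifnar2 (8.24 ± 0.731) without overlap, with Ifngr1 (9.97 ± 2.73) between them. The ratio of Jak1 to Jak2 per kb was 1.21 and 1.09 in unloaded and 1.54 and 1.61 in loaded replicates.

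**Figure D2:**
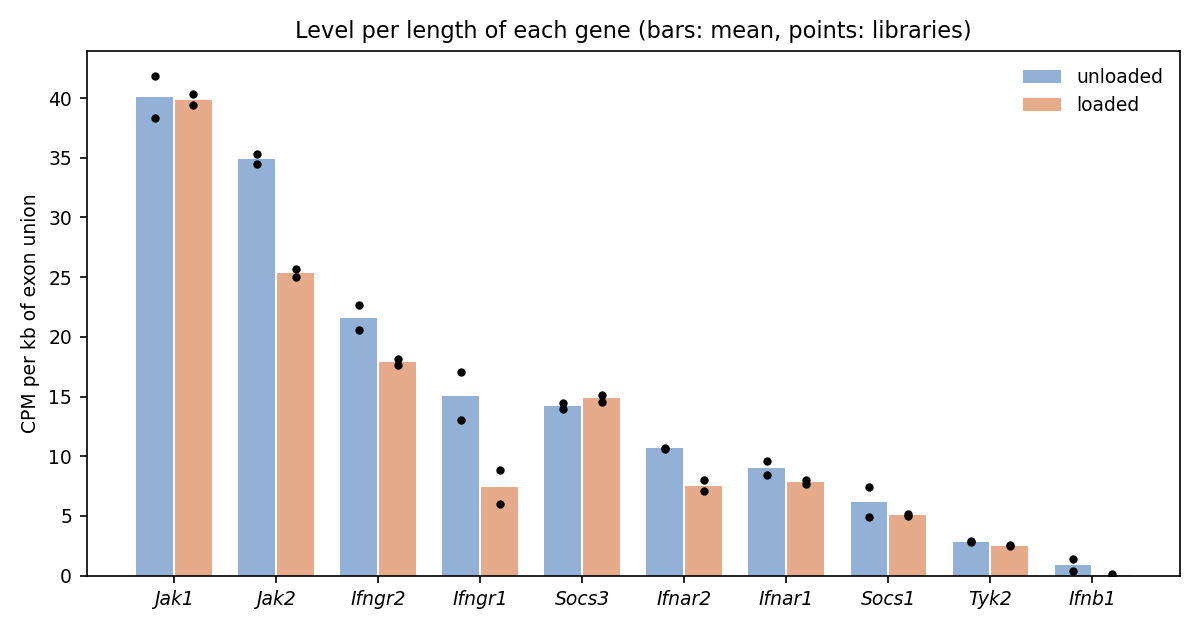
Level of each gene in CPM per kb of exon union, with bars at the group mean and points at the 2 libraries of each group, on an axis from 0. Jak1 and Jak2 are the highest in both groups, and the mean of Ifngr1 lies above that of Socs3 in the unloaded group and below it in the loaded group.

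Factors that act below the receptors were lower in both loaded libraries. Stat2, which carries the type I signal to the nucleus, had 64.6 and 64.7 CPM in unloaded and 34.6 and 39.4 CPM in loaded replicates, a log2 fold change of -0.81 (SE 0.106, edgeR adjusted p = 0.0378). Irf9, the DNA-binding partner of STAT2, had 28.4 and 29.4 CPM against 17.3 and 16.3 CPM (log2 fold change -0.79, edgeR adjusted p = 0.0410), and was named after its values were seen. Irf1, a factor induced by interferon gamma, had 75.6 and 105 CPM against 61.9 and 60.5 CPM, a log2 fold change of -0.56 (adjusted p of 0.193 by edgeR) that was -0.31 without unloaded replicate 2. At an adjusted p under 0.01 edgeR and limma-voom called 0 of these 3 genes, DESeq2 called all 3, and all 3 had an unadjusted edgeR p under 0.05. Their log2 fold changes lay between the median of the ligand-to-SOCS genes and that of the targets.

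All 41 interferon-stimulated targets passed the filter and had a negative log2 fold change, against 8380 of 16269 tested genes. Of these, 9 fell at an edgeR adjusted p under 0.01 and 0 rose, while DESeq2 called 34 lower and limma-voom 8. Without the filter on low counts edgeR called 0, with 2435 of all genes at an unadjusted p under 0.05, and with at least 10 counts in every library it called 15. Without unloaded replicate 1 or 2 the number called was 13 or 17, and without loaded replicate 1 or 2 it was 0, with 2225 or 2086 of all genes at an unadjusted p under 0.05. The median of -1.07 had an interquartile range of -1.70 to -0.63, against -0.20 to 0.16 over all tested genes. Summed over the list, the level was 2746 and 2676 CPM in unloaded and 1490 and 1522 CPM in loaded replicates. The list was chosen with earlier results of these data known, and its direction is not independent evidence.

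Ifit3, which binds foreign RNA with its relatives, fell from 25.8 and 26.9 CPM to 5.18 and 5.47 CPM, with a log2 fold change of -2.31 (adjusted p of 0.00785 by edgeR), though reads may be split with its close relative Ifit3b. The antiviral genes Rsad2, Oasl2, Oas2 and Ifit1 fell with log2 fold changes of -2.03, -1.76, -1.75 and -1.74. The chemokine gene Cxcl10, the ADP-ribosyltransferase gene Parp14 and the guanylate-binding protein genes Gbp3 and Gbp7 fell with log2 fold changes of -1.53, -1.42, -1.23 and -1.14. The targets of highest mean CPM beside Gbp7 differed less: Lgals3bp had 218 and 230 CPM against 186 and 194 CPM, and Ifitm3 had 195 and 213 CPM against 162 and 161 CPM. Neither passed the test, with log2 fold changes of -0.24 and -0.34 (edgeR adjusted p = 0.193 and 0.122). Ifngr1, the lowest of the 9 tested upstream genes, lay close to the median of the targets, and the other 8 lay above it.

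**Figure D3:**
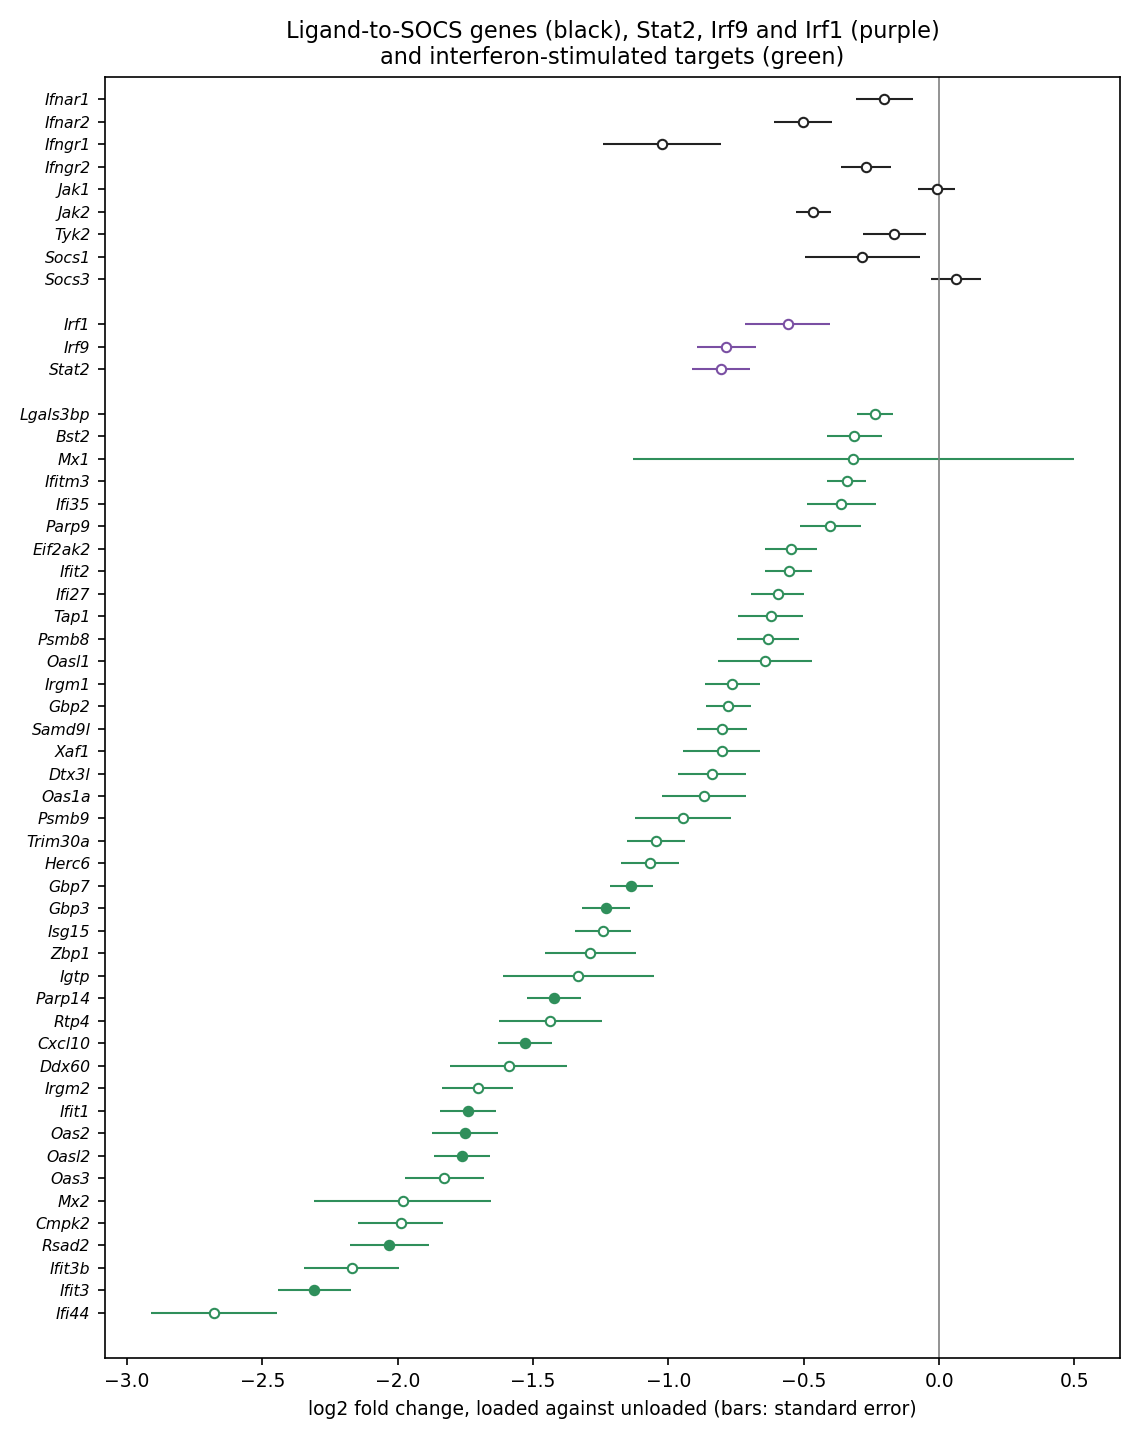
Log2 fold change of loaded against unloaded cells with its standard error for the 9 tested ligand-to-SOCS genes, the factors Stat2, Irf9 and Irf1 and the 41 targets, where filled points have an edgeR adjusted p under 0.01. All 9 filled points are targets, and Jak1 and Socs3 are the upstream genes nearest to 0.

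Genes that sense nucleic acids and induce Ifnb1 were divided. Of 18 tested, 0 were called by edgeR at an adjusted p under 0.01, 6 had an unadjusted p under 0.05 (5 lower and 1 higher), and DESeq2 called 5 lower and limma-voom 0. The 5 lower genes were Ddx58, Ifih1, Dhx58, Ikbke and Irf7, and the 1 higher gene was Cgas, all named after their values were seen. Cgas had 29.0 and 29.1 CPM in unloaded and 37.9 and 35.0 CPM in loaded replicates (log2 fold change 0.33, edgeR adjusted p = 0.222). Irf7, which drives interferon transcription, had 17.6 and 17.5 CPM in unloaded and 5.76 and 4.63 CPM in loaded replicates, a log2 fold change of -1.75 (adjusted p of 0.0197 by edgeR). The transcription factor genes Jun, Nfkb1 and Rela, of highest mean CPM in the list, had log2 fold changes of 0.089, -0.14 and 0.075. In the fits lacking 1 library, Nfkb1 lay between -0.23 and -0.043 and Rela between -0.063 and 0.20, negative without loaded replicate 1. The median over the list was -0.084.

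Other inputs and outputs of the kinases were compared in the same way. The gp130 family signals through JAK1, JAK2 and STAT3. Of its 9 tested genes, 0 were called by edgeR, DESeq2 or limma-voom at an adjusted p under 0.01. The median log2 fold change was 0.015. An unadjusted edgeR p under 0.05 was found for 3 genes, named after their values were seen. Il6 (log2 fold change 1.11, at most 2.29 CPM in a library) and Il6ra (0.36) were higher, and Clcf1 (-0.63) was lower. Il6st, the gp130 chain, had 311 and 396 CPM in unloaded and 328 and 396 CPM in loaded replicates, so the groups overlapped. Stat3 had a log2 fold change of 0.19 (adjusted p of 0.433 by edgeR) and Osmr of 0.015 (edgeR adjusted p = 0.882). In the fits lacking 1 library, Stat3 lay between 0.098 and 0.29, while 2 genes turned negative, Il6st (-0.12 to 0.22) without unloaded replicate 1 or loaded replicate 2 and Osmr (-0.060 to 0.10) without unloaded replicate 2 or loaded replicate 1. Of 5 MHC class II genes, which interferon gamma induces through Ciita, Ciita had 0, 4, 4 and 2 counts and H2-Eb1 had 0, 22, 4 and 0 counts. Cd74 alone was tested, with 3.17 and 2.08 CPM against 2.73 and 2.01 CPM.

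The position of each library was summarized as the median, over the genes of a list, of log2 CPM minus its mean over the 4 libraries. For the 4 receptor chains it was 0.22 and 0.23 in unloaded and -0.25 and -0.14 in loaded replicates. For the targets it was 0.60 and 0.50 in unloaded and -0.57 and -0.53 in loaded replicates. The groups stood apart in both lists, by a smaller distance for the receptor chains. For the 3 kinases the medians were 0.067 and 0.10 against -0.058 and -0.11. For Socs1 and Socs3 they were -0.12 and 0.21 against -0.045 and -0.049, and the loaded libraries lay between the unloaded ones.

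**Figure D4:**
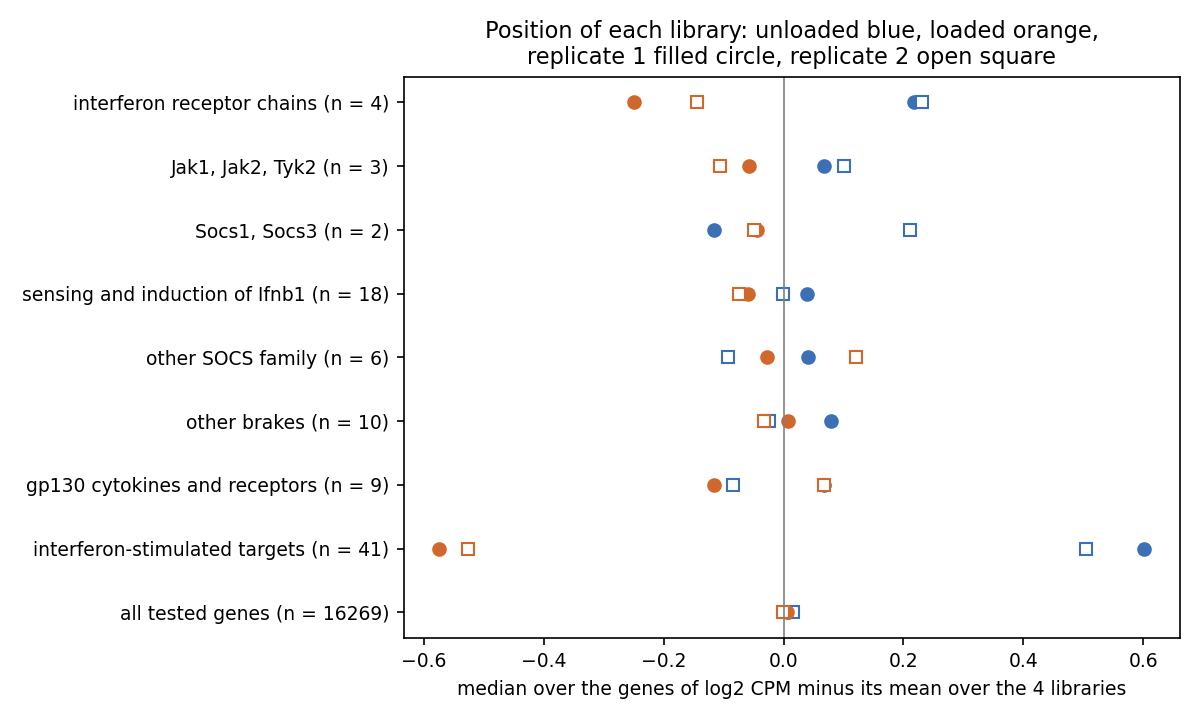
For each list, the median over its tested genes of log2 CPM minus the mean over the 4 libraries, with 1 point per library and the number of genes in brackets. Unloaded and loaded libraries separate widely for the targets, less for the receptor chains and the kinases, and overlap for the SOCS genes, the other brakes and the gp130 family.

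The same motifs were counted in the promoters of the targets. Of the 41 targets 33 had a window. Of their 36 windows, 20 held GAAANNGAAA, against 1 of 10 windows of the upstream genes and 3.44% of all windows. TTCNNNGAA was in 10 of the 36. The targets were listed as interferon-stimulated genes, and GAAANNGAAA is the core of the response element of such genes. Its excess is therefore not independent evidence. The 3 called targets with the lowest log2 fold changes and a match upstream of the start are shown for comparison with Ifnb1 and Socs1, with the matches of the first motif in capitals, here on the opposite strand. Ifit3 is from the plus strand of chr19:34583345-34583444, Rsad2 from the minus strand of chr12:26456518-26456617 and Ifit1 from the plus strand of chr19:34640749-34640848 (RefSeq, GRCm38.p6):
Ifit3: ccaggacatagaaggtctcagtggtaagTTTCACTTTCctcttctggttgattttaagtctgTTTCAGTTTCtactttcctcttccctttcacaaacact
Rsad2: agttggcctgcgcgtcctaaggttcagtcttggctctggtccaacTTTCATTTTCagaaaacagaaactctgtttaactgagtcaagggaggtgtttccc
Ifit1: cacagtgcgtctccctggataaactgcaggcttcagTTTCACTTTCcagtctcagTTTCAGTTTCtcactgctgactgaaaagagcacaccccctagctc
Neither Jak2 nor Ifngr1 held either motif in its window, which says only that these letters are not in it.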

How the data were processed

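RNA-seq counts per gene were deposited by the authors as whole numbers without normalization. The columns labelled MCtr and MTre were read as unloaded (control) and loaded (treated) cells, from the treatment record and the sample titles. The numbers in these labels were read as the replicate numbers of the titles. The authors removed adaptors and poor reads, aligned the rest to mm10 using HISAT2 2.1.0, assembled transcripts with StringTie 1.3.5 and made the counts from its coverage with prepDE. The annotation release and strandedness are not given in the sources used here. All 55450 identifiers were found in GENCODE M21, which gave positions and exon lengths.

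Here genes were filtered with filterByExpr (minimum count 10), leaving 16269, scaled by TMM and compared by edgeR 4.0.16 (R 4.3.3) using its quasi-likelihood F test. Adjustment was by Benjamini-Hochberg over all tested genes, with a threshold of 0.01. The standard error is the size of the log2 fold change divided by the square root of F. The procedure was tested on simulated counts. Alternatives were DESeq2 1.42.0, limma-voom (limma 3.58.1), RLE and upper-quartile factors, other filters, a replicate block, an adjusted p of 0.05, leaving out each library, the longest transcript as gene length and, chosen after seeing the data, counts divided by 4 and the summed Ifnb1 ratio without each library. Tables and figures used Python 3.11.15.

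The members and lists were chosen with earlier results of these data known. Named genes are all 10 members, list genes with an adjusted p under 0.01, the 3 of highest mean CPM in each list and the 5 genes most like the member of smallest p. Other bone and leukocyte markers in the text lie outside this rule and were named after their values were seen. The 37 mitochondrial genes listed had 0 counts in all libraries and gave no quality measure. Some listed genes are not reported here. Floors and intervals cover counting error only.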

Additional observations from a re-analysis of the deposited data

How the results depend on the processing

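The number of genes called depended on the tool and the libraries. The main test called 2 genes higher and 14 lower. DESeq2 called 170 and 193, edgeR without the filter on low counts 0 and 0 (2435 genes at an unadjusted p under 0.05), and with at least 10 counts in every library 4 and 25. At an adjusted p under 0.05 the counts were 55 and 92. Of the 10 upstream genes, DESeq2 called 2 and the looser threshold 1, and every other alternative run called 0, counts divided by 4, chosen after seeing the data, included. In fits lacking 1 library, with the lone sample assumed to vary like the other group, 0 to 19 genes were called higher and 0 to 40 lower.

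The replicate number as a block gave 0 and 0 genes and 0 upstream genes, with 1839 genes at an unadjusted p under 0.05. The deviations from the group means of libraries of the same number had a correlation across genes of -0.057. A correlation across genes cannot decide whether such libraries shared a culture or batch, since it need not show what moves only some genes. Such sharing was not tested.

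The median log2 fold change of the upstream genes lay between -0.40 and -0.20, and that of the targets between -1.16 and -0.98, in the fits lacking 1 library. Without unloaded replicate 1, which gave -0.40, and without either loaded replicate, Ifnb1 also passed the filter. Those upstream medians therefore cover 10 genes, against 9 in the main fit. With DESeq2 the log2 fold change of Jak2 was -0.46 and that of Ifngr1 -1.02, both now called. Jak1 turned to 0.00027 with RLE factors and ranged from -0.071 to 0.063 over left-out libraries, and Socs1 ranged from -0.55 to 0.052. Of 112 alternative values for the 10 genes, 106 kept direction and side of the threshold. The causes were not tested.

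Per kb of the longest transcript, Ifngr1 (20.2 ± 3.85) overlapped Ifngr2 (22.0 ± 1.46) and not Socs3 (16.1 ± 0.384) in unloaded cells. Low counts limit what can be read from Ifnb1.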
